A study of Homo sapiens with 18 samples.

Results

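U251 glioblastoma cells exposed to enzastaurin for 4 h were compared with U251 cells exposed to DMSO for 4 h. The comparison uses 6 of the 18 arrays of the series, the 3 titled as enzastaurin at 4 h and the 3 titled as DMSO at 4 h, and the other 12 arrays are the same treatments at 10 and 18 h. U251 is an established human glioma line, grown here in RPMI medium with 5% serum, and DMSO is the solvent in which enzastaurin is given. The labels give no dose of enzastaurin. Nor do they state whether the 3 arrays of a group came from different cultures. The p-values here therefore reflect only the spread among arrays, part of which may be technical. That spread was estimated from all 18 arrays, within their 6 groups. Total RNA was read on Affymetrix HG-U133 Plus 2.0 arrays, which carry 54613 probe sets in the table used here. Each gene is represented by the probe set that was brightest on average over all 18 arrays. Genes whose average level was at or above the probe set median (about 102 in intensity) were tested. That left 12376 of 19775 genes.

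Enzastaurin is a bisindolylmaleimide, an ATP-competitive inhibitor designed to block protein kinase C beta, and the series title names inhibition of the kinase GSK3 as its subject. In unstimulated cells GSK3 phosphorylates beta-catenin inside a complex built on AXIN and APC, and phosphorylated beta-catenin is degraded. When that step is blocked, beta-catenin collects in the nucleus and activates genes bound by TCF and LEF factors, and AXIN2 is the textbook member of that group because it feeds back on the pathway in most tissues. Protein kinase C and the ERK kinases act instead on short-lived transcripts, the immediate early genes, which respond to serum and stress.

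Arrays of the same group correlated at 0.979 to 0.984, and no array stood apart from the other 2 of its group (median absolute log2 deviation 0.131 to 0.139). All arrays had been scaled to a common mean, so a change in total mRNA per cell could not be seen. Array medians were 124, 118 and 111 in DMSO and 108.5, 114.0 and 99.5 in enzastaurin, and centring each array on its median instead raised the median change of all genes from 0.00 to 0.12 on the log2 scale. Of 10 glial and glioma markers, 8 were above the median level, with vimentin (VIM) at 31278 to 38580 and CD44 at 20748 to 23473. GFAP and S100B, which define mature astrocytes, were near background at 4.6 to 57.1. None of the 7 tested markers of blood, vessel, epithelial, neuronal or oligodendrocyte cells was called. Of the 16 such markers on the array 7 lay above the median level, among them PECAM1 of endothelium (283.5 to 342.3), CD3E of T cells (57.1 to 216.3), HBB of red cells (257.1 to 385.1) and the neuronal SYT1 (351.7 to 465.4), and 9 did not, among them CDH5 of endothelium and PTPRC of leukocytes, at most 53.5. The summed level of the 16 was 2217 to 2652.5 in DMSO and 2018.5 to 2189.8 in enzastaurin, without overlap. This sum was not corrected for the lower array medians in enzastaurin. The median log2 change of the 7 tested markers was -0.11, and 0.004 with array medians subtracted. The part of this shift in the results was not tested. All arrays are titled as U251, a single cell line, so the sum of the 16 markers does not measure a mixture of cell types.

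At 4 h 224 of 12376 genes, 1.81%, passed an adjusted p of 0.05 in limma, and the term called is used for these. Of them 69 were higher (0.558%) and 155 lower (1.25%). The counts within lists below stand beside these shares, at which a short list can hold no call or 1 without differing from all genes. All 224 had 3 treated arrays beyond all 3 DMSO arrays, as had 18.3% of all tested genes. Where it is stated for single called genes below, this separation describes the values and adds no support to the call. Changes are log2 differences of intensity plus 16, which understates the change of dim genes. The median change was 0.50 among the called higher genes and -0.53 among the called lower ones, 135 of the 224 changed by less than 1.5-fold, and 6 rises and 10 falls reached 2-fold. The balance of directions depended on scaling: with array medians subtracted 79 genes were called, 54 higher and 25 lower. Of the 224 calls, 97 were kept whichever of the 6 arrays was left out. Of these 33, 14 higher and 19 lower, were also kept under all other alternatives in which the gene was fitted. Genes dimmer than the brightest 25% of probe sets had no test in the alternative limited to those. The number called was 148 when DMSO replicate 1 was left out, 143 when DMSO replicate 3 was and 138 when enzastaurin replicate 1 was.

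**Figure D1:**
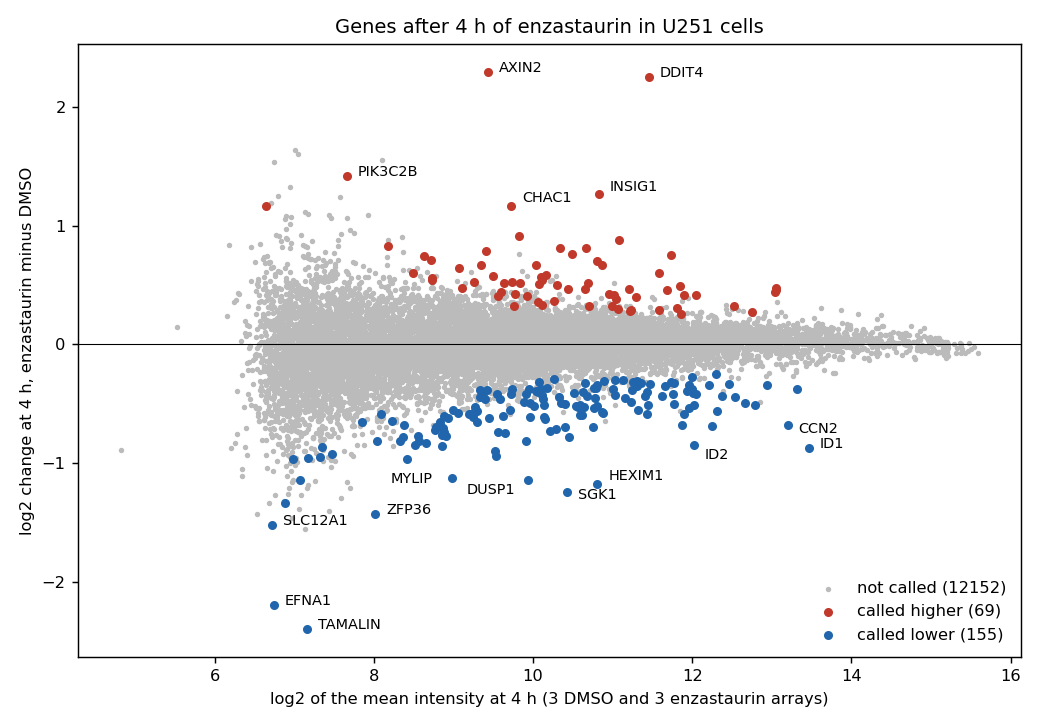
Each point is 1 of the 12376 genes tested, with log2 of its mean intensity over the 6 arrays at 4 h on the x axis and its log2 change on the y axis. Red points are the 69 genes called higher and blue points the 155 called lower, and AXIN2 (2.29) and DDIT4 (2.25) lie far above the others.

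Feedback genes of the Wnt pathway held the largest rise. AXIN2, the scaffold of the beta-catenin destruction complex, read 228, 214 and 228 on the DMSO arrays and 1189.5, 1125 and 1157 on the enzastaurin arrays, a 5.18-fold ratio of the means. All 3 treated arrays lay far above all DMSO arrays. Its 3 other probe sets changed by 1.23 to 1.71. ZNRF3, a ubiquitin ligase that removes Frizzled receptors from the cell surface, read 1132, 1069.5 and 995 in DMSO and 1789, 1874 and 1790.2 in enzastaurin (0.76, SE 0.08, adjusted p = 1e-05). TNFRSF19, a receptor of the tumour necrosis factor family, rose by 0.79 (adjusted p = 0.0017), from 423 to 576 in DMSO to 729 to 999 in enzastaurin. The 3 treated arrays were again all above the DMSO arrays for both genes. The same list of 11 tested Wnt feedback and target genes had 2 members that fell. DKK1, a secreted inhibitor of the LRP co-receptors, read 4302, 4788 and 5614 in DMSO and 3399.5, 3362 and 3499.6 in enzastaurin (-0.51, adjusted p = 0.0016). MYC, a growth transcription factor, read 1544, 1652 and 1857 in DMSO and 1032, 943 and 1121 in enzastaurin. Both falls were without overlap between groups, and both calls were lost with array medians subtracted (adjusted p = 0.16 for DKK1 and 0.058 for MYC). The median of the 11 genes was 0.23, against 0.00 for all genes tested. Called or not, 8 of the 11 had a positive change and 3 a negative one.

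Frizzled genes, which encode the Wnt receptors, were lower in 3 of 7 tested members and higher in none; this family and the SOX family below were looked at after their values were seen. FZD7 read 1035, 1051 and 929.9 in DMSO and 567, 624 and 591 in enzastaurin (-0.74, SE 0.09, adjusted p = 3.8e-05). FZD2 changed by -0.90 (adjusted p = 0.0019) and FZD1 by -0.53 (adjusted p = 0.024), each with treated arrays all below the DMSO arrays. The call of FZD1 was lost with array medians subtracted and without any 1 of 4 arrays, and the calls of FZD1 and FZD2 with the mean over probe sets. None of 17 tested genes of GSK3 and the destruction complex passed the test in either direction. Among 12 tested protein kinase C and D genes 1 passed, PRKD2, with 742, 806 and 751 in DMSO and 974, 973 and 938 in enzastaurin (0.32, adjusted p = 0.022). Its call was lost without any 1 of 4 arrays, and the mean over its probe sets changed by -0.08.

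Stress genes regulated by the transcription factor ATF4 rose in 4 of 19 tested members and fell in 1, with a list median of 0.17. DDIT4, an inhibitor of the growth kinase complex mTORC1, read 1048, 873 and 975 in DMSO and 4338, 4136 and 5528 in enzastaurin. TRIB3, a pseudokinase that binds AKT and ATF4, read 1235, 1094 and 1179 against 1556, 1618 and 1677 (0.46, adjusted p = 0.0074). SESN2, which restrains mTORC1 when amino acids are short, read 659.9, 700.4 and 723 against 992, 942 and 1085 (0.52, adjusted p = 0.0099). No treated array reached down to a DMSO array in these 3 genes. CHAC1, an enzyme that degrades glutathione, was more variable, with 436, 429 and 689 in DMSO and 987, 1015 and 1529 in enzastaurin (1.16, SE 0.24, adjusted p = 0.013). Its call was lost without any 1 of 3 arrays (adjusted p up to 0.084), and that of SESN2 without any 1 of 2 (up to 0.059). CEBPB, a bZIP factor of the same network, fell (-0.35, adjusted p = 0.0024), a call lost with array medians subtracted. ATF4 itself changed by 0.22 and ASNS, asparagine synthetase, by 0.29, and neither passed (adjusted p = 0.15 for both). None of 10 tested amino acid synthesis genes and none of 17 tRNA synthetases passed, with list medians of 0.15 and 0.09. Of 17 amino acid transporters SLC3A2, the heavy chain shared by several exchangers, rose (0.45, adjusted p = 0.012), and SLC38A2, a sodium-coupled carrier of small neutral amino acids, fell (-0.49, adjusted p = 0.0054). The call of SLC3A2 was lost without any 1 of 2 arrays, and that of SLC38A2 with array medians subtracted.

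Sterol and fatty acid genes controlled by SREBP factors were higher in 3 of 30 tested members and lower in none (median 0.11). INSIG1, an anchor that holds SREBP back at the ER membrane, read 1008, 1040.5 and 1138 in DMSO and 2691, 2321 and 2716 in enzastaurin. MSMO1, which oxidizes sterol methyl groups, read 849, 783 and 785 against 1149, 1342 and 1394. SCD, a desaturase of fatty acyl chains, read 2473, 2507 and 2314 against 3726, 3396 and 3973. Every treated array exceeded every DMSO array in these 3 genes. Enzymes of the same pathway with no call included HMGCS1 (0.24), SQLE (0.23) and FDPS (0.18). The SCD call was lost when all its probe sets were averaged. MYLIP, a ubiquitin ligase that targets the LDL receptor and a known LXR target, read 659, 753 and 691 in DMSO and 308, 282 and 349 in enzastaurin. Its 5 other probe sets changed by -1.48 to -0.87. The 7 other tested LXR targets did not pass, among them ABCA1 (-0.14) and ABCG1 (-0.25), which export cholesterol. Of 24 ER chaperone and sensor genes DNAJB9, a co-chaperone of BiP, rose with 1116, 1403 and 1576 in DMSO and 2053, 2046 and 2575 in enzastaurin, and XBP1, a transcription factor of the unfolded protein response, rose by 0.32. The XBP1 call was lost without any 1 of 4 arrays (adjusted p up to 0.15), and BiP itself (HSPA5) changed by 0.15 with no call.

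Among other rises, 2 of 4 CLK kinases, which phosphorylate the SR splicing factors, were called. CLK2 read 888, 930.1 and 991 in DMSO and 1678, 1544 and 1746 in enzastaurin (0.81, SE 0.12, adjusted p = 0.00044), and CLK3 changed by 0.59 (adjusted p = 0.0087). CLK1 (0.52) and CLK4 (0.43) did not pass (adjusted p = 0.11 and 0.084), and none of the SR factors in the list of 16 passed. The CLK3 call was lost without any 1 of 2 arrays. BHLHE40, a transcriptional repressor that acts on the circadian clock, read 1211, 1141 and 1161 in DMSO and 1668, 2255 and 2348 in enzastaurin. It was the 1 called member of 13 tested clock genes; PER2 changed by 0.44 (adjusted p = 0.23) and BMAL1 by -0.19 (0.69). VEGFA, the angiogenic growth factor, read 1264, 1427 and 1352 against 1804, 1714 and 2106 (0.47, adjusted p = 0.0054). ADM, adrenomedullin, which like VEGFA belongs to the hypoxia list of 18 tested genes, moved the other way, with 2051, 2226 and 2145 against 1373, 1315 and 1263 (-0.69, adjusted p = 1.3e-05). The groups did not overlap for any of these called genes, as for every called gene.

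**Figure D2:**
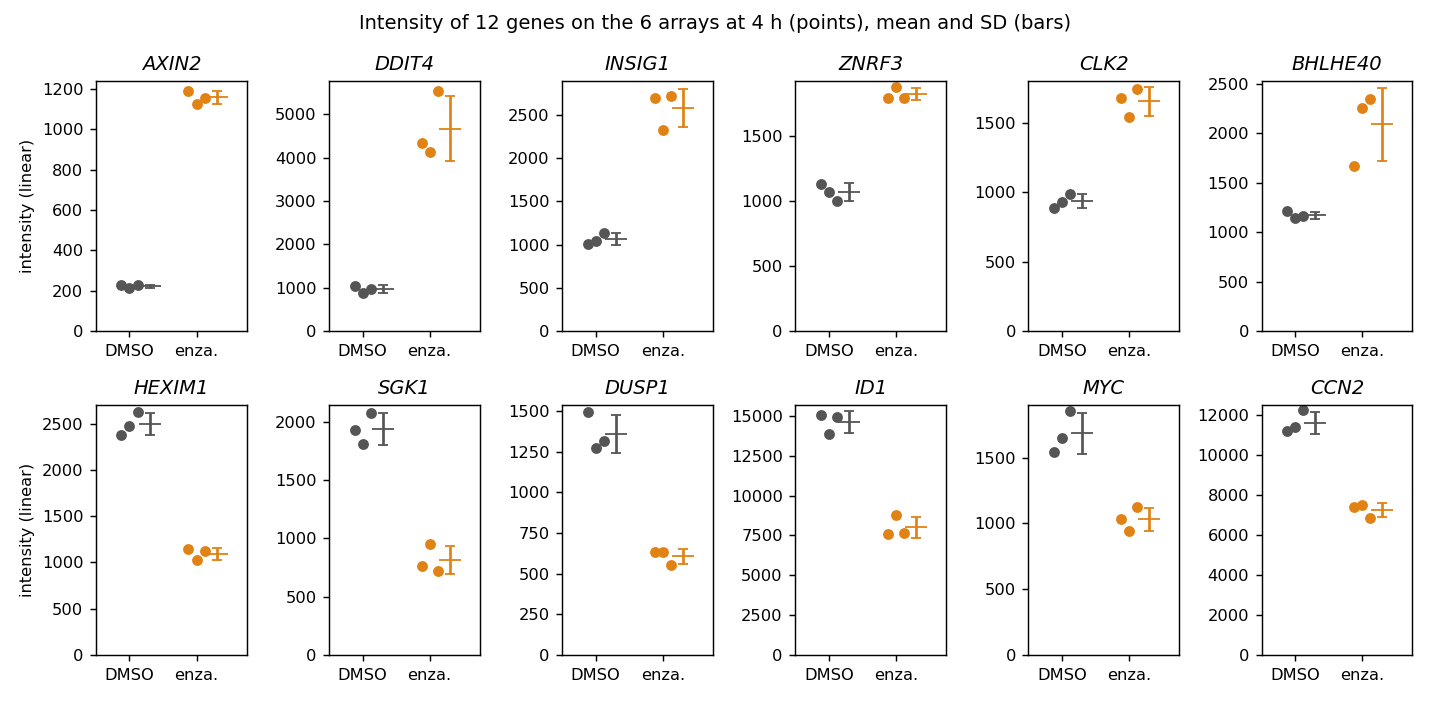
Linear intensity of 12 genes on the 3 DMSO arrays (grey) and the 3 enzastaurin arrays (orange) at 4 h, with the mean and SD beside the points; each y axis starts at 0. The upper 6 genes, such as AXIN2 (223 against 1157), were higher and the lower 6, such as HEXIM1 (2493 against 1095), lower in enzastaurin, without overlap.

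The genes that fell included regulators of transcription and RNA stability. HEXIM1, which together with 7SK RNA holds the elongation kinase P-TEFb inactive, read 2382, 2474 and 2623 in DMSO and 1142, 1021 and 1121 in enzastaurin. Both groups were tight, and the other probe set of HEXIM1 above the median level changed by -1.37. P-TEFb's own subunits did not pass: CDK9 changed by 0.36, CCNT1 by 0.29 and CCNT2 by 0.33. BRD2, a bromodomain protein, was the second lower member of the 20 tested elongation genes (-0.35, adjusted p = 0.046), and its call was lost without any 1 of 5 arrays. Of 9 tested genes for mRNA decay and the BTG/TOB family 4 fell: ZFP36, ZFP36L2, TOB1 and BTG1. ZFP36, a protein that binds AU-rich elements and speeds decay, read 437, 275 and 444 in DMSO and 132, 104 and 161 in enzastaurin (-1.43, adjusted p = 0.017). TOB1, an antiproliferative protein that recruits deadenylases, read 2826, 3228 and 3061 against 2251, 1800.0 and 2182 (-0.55, adjusted p = 0.0005). Groups did not overlap in either gene. The ZFP36 call was lost without any 1 of 4 arrays (adjusted p up to 0.091), and with array medians subtracted all 4 calls were lost, while the list median went from -0.36 to -0.25.

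Immediate early genes were lower in 6 of 14 tested members and higher in none, with a list median of -0.43 (-0.31 with array medians subtracted). IER5, a stress-induced regulator of heat shock factor, read 4296, 4792 and 4689.8 in DMSO and 3114, 2961 and 3057 in enzastaurin (-0.59, SE 0.06, adjusted p = 6.5e-06). JUN, an AP-1 subunit, read 5369.7, 5777 and 6884 against 3522, 3527 and 4088 (-0.69, adjusted p = 0.00089). MAFF, a small MAF factor, read 1051, 948 and 931 against 594, 470.1 and 447 (-0.94, adjusted p = 0.00086). All 9 treated values lay below the DMSO values of their gene. JUND (-0.51), IER2 (-0.59) and IER3 (-0.41) also fell, IER2 with a call lost without any 1 of 2 arrays. EGR1 (0.25), FOSL1 (0.38) and NR4A1 (0.41), which are also immediate early genes, had positive values with no call. With array medians subtracted, 2 of the 6 calls remained in this list. JUN, JUND and MAFF each had probe sets that moved less or the other way, JUN between -0.61 and 0.33.

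The ERK feedback list of 22 tested genes had 5 lower members and none higher. DUSP1, a nuclear phosphatase of MAP kinases, read 1491, 1270.4 and 1314 in DMSO and 634, 632 and 554 in enzastaurin on its brightest probe set. Treated values did not overlap with DMSO, but its 2 other probe sets changed by 0.00 and 0.39, and the call was lost with the mean over probe sets. DUSP6, the ERK-specific cytoplasmic phosphatase, read 512, 529 and 590.5 against 309.7, 285 and 380.1 (-0.72, adjusted p = 0.0023), and its 2 other probe sets fell in parallel (-0.85 and -1.12). DUSP5, a nuclear ERK phosphatase, read 576, 519.6 and 648 against 311, 375 and 367 (-0.70, adjusted p = 0.0018). HBEGF, an EGF receptor ligand, changed by -0.71 and the cytokine IL11 by -0.68; the IL11 call was lost without any 1 of 5 arrays and that of HBEGF without any 1 of 2. Other textbook outputs of ERK did not pass, with SPRY2 at 0.19, SPRY4 at 0.14, ETV4 at 0.12 and ETV5 at -0.11. With quantile normalization 4 members were lower, and with array medians subtracted 2.

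All 4 ID genes, which encode dominant-negative partners of bHLH factors and respond to BMP signals, were lower, and the remaining 10 tested members of the BMP list did not pass. ID1 read 15095, 13868 and 14960.0 in DMSO and 7576, 8779 and 7673 in enzastaurin (-0.87, SE 0.07, adjusted p = 2.7e-07). ID2 read 5571, 5365 and 5084 against 3002, 2898 and 2994 (-0.84, adjusted p = 2.9e-06). ID4 read 632, 597 and 597 against 378, 333 and 338 (-0.77, adjusted p = 0.0018). In each of these 3 genes the highest treated value lay well below the lowest DMSO value. ID3 changed by -0.44 (adjusted p = 0.0018). With array medians subtracted ID1 and ID2 remained called, and ID3 (adjusted p = 0.20) and ID4 (0.056) did not. SMAD6 (-0.39), SMAD7 (-0.03) and BAMBI (-0.19), feedback inhibitors of the same pathway, did not pass. TGIF1, a SMAD corepressor, was the 1 called gene of 19 in the TGF-beta list (-0.73, adjusted p = 1.3e-05), though its other probe sets changed by only -0.30 and -0.02.

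Of 18 tested YAP and TEAD genes 3 fell and none rose. CCN2, connective tissue growth factor, read 11194, 11389 and 12245 in DMSO and 7377, 7481 and 6826 in enzastaurin (-0.68, SE 0.07, adjusted p = 1e-05). CCN1, another secreted matrix protein of that family, read 7725, 8352 and 8995 against 5476, 5721 and 6354 (-0.51, adjusted p = 0.0023). LATS2, the kinase that restrains YAP, changed by -0.39, a call lost without any 1 of 2 arrays (adjusted p up to 0.086) and with the mean over probe sets. Treated and DMSO arrays were separate in all 3, but ANKRD1 (-0.20), AMOTL2 (-0.16) and AXL (0.00), often used as YAP targets, did not pass. CCN2 alone of the 3 was called with array medians subtracted, where the list median turned from -0.09 to 0.03. Of 12 ephrin and Eph receptor genes 3 fell, with a median of -0.44. EFNA1, a membrane-anchored ligand, read 209.9, 141 and 209 in DMSO and 21.8, 32.7 and 29.1 in enzastaurin, so the treated values lay below the median level of the arrays and the size of this fall is imprecise. EFNB2, a transmembrane ephrin, read 4767, 4489.6 and 5233 against 3473, 3627 and 3709 (-0.42, adjusted p = 0.00058), a call lost with array medians subtracted. EPHB3, an ephrin-B receptor, changed by -0.82 (adjusted p = 0.0024). In the Notch list of 14 tested genes NRARP, a feedback inhibitor of the Notch complex, read 669.5, 513 and 592 against 387, 336 and 321 (-0.74, adjusted p = 0.0018). Its ligand JAG1 (-0.35) and target HEY1 (-0.46) also fell, with calls lost without any 1 of 2 and any 1 of 4 arrays, and both lost with array medians subtracted.

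Insulin and FOXO genes fell in 5 of 22 tested members and rose in 1. SGK1, a kinase related to AKT, read 1929, 1811 and 2079 in DMSO and 768, 951 and 724 in enzastaurin. IRS2, an adaptor of the insulin receptor and a FOXO target, read 1806, 1729 and 1847 against 1128, 1336 and 1259 (-0.53, adjusted p = 0.0018). CITED2, a CBP and p300 binding protein, read 937, 901 and 997 against 574, 507 and 603 (-0.74, adjusted p = 0.0024). The repressor BCL6 changed by -0.97 on its brightest probe set and by 0.32 and 0.46 on the others, and CCNG2, an atypical cyclin, by -0.85, a call lost without any 1 of 4 arrays. All of these falls were without overlap; with array medians subtracted SGK1 and BCL6 were the 2 still called. The 1 rise was PIK3C2B, a class II PI3-kinase, with 142, 83.5 and 89.9 in DMSO and 281, 306 and 313 in enzastaurin, and its call was lost without any 1 of 5 arrays. Of 34 G2/M genes, AURKA (-0.38) and KIF20A (-0.43) were lower and 27 had a negative change (median -0.13). With array medians subtracted that median was -0.02 and neither gene was called. No member passed in the lists of NF-kB targets (19 tested, median -0.10), interferon-stimulated genes (18, -0.07), heat shock proteins (17, 0.03), ribosome biogenesis (24, 0.11), oxidative phosphorylation (33, 0.04) and the proteasome (27, 0.02). With 1.81% of all tested genes called, lists of these sizes can hold no call without differing from all genes. PFKFB3, a kinase whose product stimulates glycolytic flux, was the 1 called gene of 23 in the glycolysis list (-0.57, adjusted p = 0.004), a call lost with array medians subtracted.

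**Figure D3:**
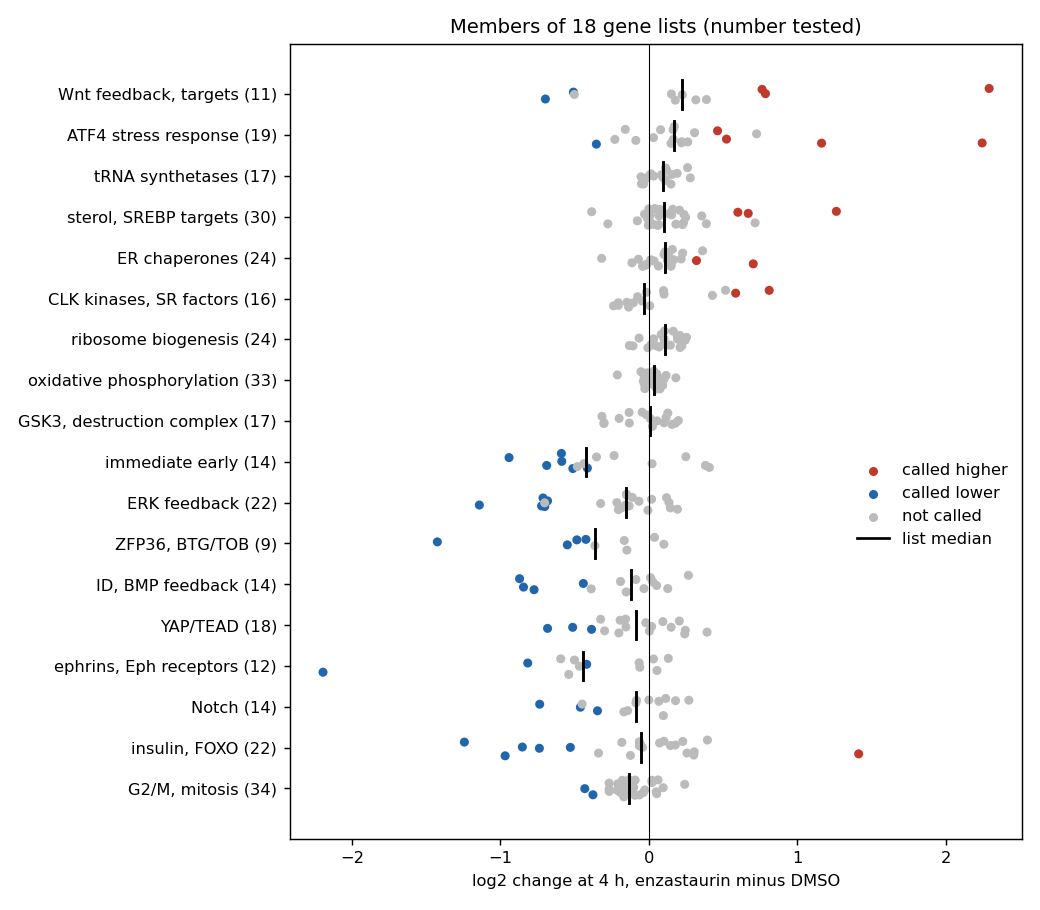
Log2 change at 4 h of every tested member of 18 gene lists; each point is a gene, coloured red or blue where it was called, and black bars are list medians. Immediate early genes (median -0.43) and ephrins (-0.44) lie to the left, Wnt feedback genes (0.23) to the right, and oxidative phosphorylation genes (0.04) cluster at 0.

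Promoter sequence was set beside the calls. Windows of 250 bases before the start site, from RefSeq on GRCh38.p14, were found for 55 of the 69 higher and 129 of the 155 lower genes. The TATA box, searched as TATAAA on the sense strand with its first base 20 to 40 bases before the start, was in 13 of the 129 (10.1%) and in 1 of the 55 (1.82%), against 1.85% of 10080 tested genes with a window and 2.55% of all 27305 windows. This position was chosen after the data were seen; TATAAA anywhere in the window on either strand was in 14.7% of lower and 1.82% of higher genes, 5.65% of tested genes and 11.1% of all windows. The 13 lower genes were ADM, BTG1, CCN2, DKK1, DUSP1, GTF2B, H2BC5, HEXIM1, ID1, ID4, PPP1R10, SEPHS2 and TENT5A, and the higher gene was INSIG1. With array medians subtracted the calls of BTG1, DKK1, GTF2B, H2BC5, ID4, PPP1R10, SEPHS2 and TENT5A were lost, and that of H2BC5 also without any 1 of 5 arrays. Promoter shares were not recounted on that scaling. HEXIM1, ID1, DUSP1, CCN2 and INSIG1 are shown so that the box can be seen in place, with CHAC1 as a target of ATF4. Capitals mark the positioned TATAAA in the first 5, also TGACGTCA (the cAMP response element) in DUSP1 and CACGTG (the E-box) in DUSP1 and INSIG1, and in CHAC1 the composite C/EBP-ATF element TGATGNAA, which lies on the opposite strand. Matches to CCAAT stay in lower case. The other TATAAA match in ID1 lies on the opposite strand and overlaps the marked box, so it is no separate site. Each ends at the base before the start, and the sites are chr17:45148225-45148474 (plus strand) for HEXIM1, chr20:31605039-31605288 (plus strand) for ID1, chr5:172771196-172771445 (minus strand) for DUSP1, chr6:131951373-131951622 (minus strand) for CCN2, chr7:155297628-155297877 (plus strand) for INSIG1 and chr15:40953221-40953470 (plus strand) for CHAC1.
HEXIM1: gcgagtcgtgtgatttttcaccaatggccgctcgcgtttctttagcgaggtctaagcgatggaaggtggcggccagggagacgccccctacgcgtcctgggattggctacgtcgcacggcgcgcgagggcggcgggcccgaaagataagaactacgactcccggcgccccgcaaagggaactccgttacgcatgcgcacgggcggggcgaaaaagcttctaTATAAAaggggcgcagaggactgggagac
ID1: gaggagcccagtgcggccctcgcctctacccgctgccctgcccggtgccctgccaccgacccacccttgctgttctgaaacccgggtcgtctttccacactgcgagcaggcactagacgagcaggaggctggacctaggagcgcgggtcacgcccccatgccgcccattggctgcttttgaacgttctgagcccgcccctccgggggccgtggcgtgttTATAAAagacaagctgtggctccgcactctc
DUSP1: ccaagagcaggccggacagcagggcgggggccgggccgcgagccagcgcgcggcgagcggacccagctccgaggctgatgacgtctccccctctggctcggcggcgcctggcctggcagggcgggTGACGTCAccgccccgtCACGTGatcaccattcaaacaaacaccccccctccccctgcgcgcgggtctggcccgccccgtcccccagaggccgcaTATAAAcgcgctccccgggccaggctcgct
CCN2: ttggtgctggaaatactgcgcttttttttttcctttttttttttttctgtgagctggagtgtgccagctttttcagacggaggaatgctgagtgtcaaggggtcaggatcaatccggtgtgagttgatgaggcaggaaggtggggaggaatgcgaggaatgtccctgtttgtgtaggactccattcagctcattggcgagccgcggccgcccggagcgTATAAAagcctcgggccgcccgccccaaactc
INSIG1: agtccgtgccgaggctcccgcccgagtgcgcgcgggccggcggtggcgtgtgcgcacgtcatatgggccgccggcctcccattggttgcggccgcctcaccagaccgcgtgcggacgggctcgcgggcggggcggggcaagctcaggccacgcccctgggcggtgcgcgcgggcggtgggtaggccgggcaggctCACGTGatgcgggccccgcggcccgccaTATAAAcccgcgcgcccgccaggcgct
CHAC1: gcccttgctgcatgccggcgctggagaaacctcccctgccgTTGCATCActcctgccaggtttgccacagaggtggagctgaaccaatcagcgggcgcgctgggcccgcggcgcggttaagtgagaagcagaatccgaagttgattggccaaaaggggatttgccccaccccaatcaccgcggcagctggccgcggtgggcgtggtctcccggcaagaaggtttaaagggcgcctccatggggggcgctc

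The first base of the box was 29 bases before the start in HEXIM1, 31 in ID1, 30 in DUSP1, 32 in CCN2 and 27 in INSIG1. Searched on both strands of the whole window, CCAAT was in 48.8% of lower and 41.8% of higher genes, against 35.4% of tested genes and 33% of all windows. The E-box CACGTG was in 18.2% of higher and 12.4% of lower genes, against 8.8% of tested genes and 6.49% of all windows. The cAMP response element was in 5.43% of lower and 1.82% of higher genes, against 2.88% and 1.77%. The TCF motif CTTTGAT was in 1 of 55 higher genes and none of 129 lower ones (1.39% of tested genes, 2.28% of all windows). TGATGNAA was in 2 of the 55 higher (3.64%) and 1 of the 129 lower genes (0.775%), against 1.62% and 3.19%. The AP-1 motif TGANTCA was in 3.64% of higher and 2.33% of lower genes, against 3.93% and 6.6%. The CArG box of serum response factor was in 3 of 129 lower genes (2.33%) and no higher one, against 1.09% and 1.14%. The sterol regulatory element was in no called gene, against 0.0397% and 0.0366%. A CArG box can hold TATAAA or CCAAT, otherwise no motif contains another, though neighbouring matches may share end bases, and a match is a run of letters and no evidence of binding. Median GC content was 65.2% in higher, 65.6% in lower and 64.6% in tested genes.

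The genes called at 4 h were followed to the later times. Of the 69 genes higher at 4 h, 37 were called higher again at 10 h, where 3.77% of all genes were, and 33 at 18 h, where 8.1% were; 25 were called at neither time, where 8.45% and 16% of all genes were called in either direction. Of the 155 lower genes 62 were called lower at 10 h (4.69% of all genes) and 48 at 18 h (7.9%), while 20 were called higher at 18 h and 65 at neither time. The difference between the effects at 18 h and 4 h was tested as an interaction and called for 7.78% of all genes, 111 of the 224 among them. Since the genes were chosen by their 4 h value, which enters both sides of that difference, a smaller later effect is favoured by the choice. Among lower genes 72 had a called difference toward a smaller or opposite effect and 8 toward a larger one, and among higher genes the counts were 16 and 15. For a lower gene a smaller effect is a positive difference, and positive differences depended on scaling. Over all genes they went from 504 to 143 with array medians subtracted, and negative ones from 459 to 403. The 72 and 8 were not recounted on that scaling. At 10 h, 1.41% of all genes and 43 of the 224 had a called difference. DMSO cells changed over time as well: 41 of the 155 lower genes were called higher and 31 lower in DMSO at 18 h than at 4 h, against 11.3% and 9% of all genes.

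On the scaling as deposited, the falls that turned included transcription factors and receptors. KLF4, a zinc finger factor of growth arrest and stemness, changed by -0.77 at 4 h and by 0.95 at 18 h, with DMSO means of 479.6 ± 19.8 (SD, n = 3) at 4 h and 449 ± 44.1 at 18 h and enzastaurin means of 275 ± 26.5 and 882 ± 86.4. Its other probe set showed only -0.07 at 4 h, and the call was lost with the mean over probe sets. IER5 went from -0.59 to 0.52, DUSP5 from -0.70 to 0.47 and HEY1 from -0.46 to 0.72, each called at both times and in the difference. SOX2, a stem cell factor kept on in glioma, went from -0.54 to 0.45, and its relative SOX4 from -0.33 to 0.73. SOX11 was also lower at 4 h (-0.60, adjusted p = 0.011) and did not pass at 18 h (0.31, adjusted p = 0.097), so 3 of 11 tested SOX genes fell at 4 h. With array medians subtracted, or with the mean over probe sets, none of these 3 was called at 4 h. The SOX4 call was also lost without any 1 of the 6 arrays and the SOX11 call without any 1 of 2. The other SOX2 probe sets changed by -0.71, 0.11 and 0.12 at 4 h. FZD7 went from -0.74 to 0.32 while FZD2 went from -0.90 to -1.44, a difference of the latter that did not pass (adjusted p = 0.15).

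**Figure D4:**
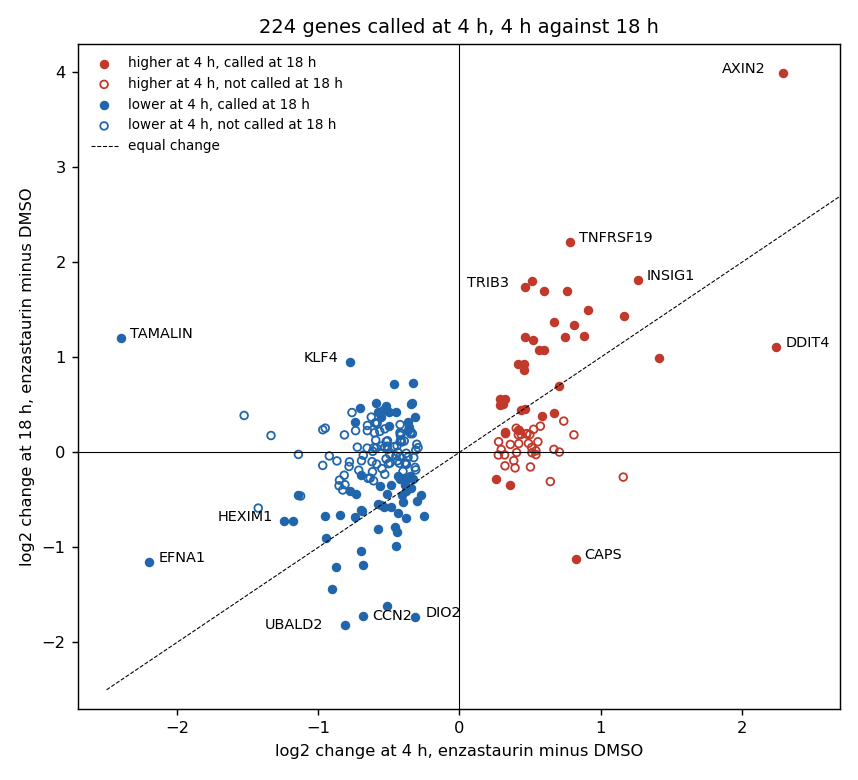
Each point is 1 of the 224 genes called at 4 h, with its log2 change at 4 h on the x axis and at 18 h on the y axis; filled points were called at 18 h and the dashed line is equal change. Many blue points lie near or above 0 at 18 h, KLF4 (-0.77 to 0.95) among them, while AXIN2 (2.29 to 4.00) lies above the line.

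Several changes present at 4 h were larger later. AXIN2 went from 2.29 to 4.00 and TNFRSF19 from 0.79 to 2.21, while ZNRF3 went from 0.76 to 1.70, each with a called difference. SCD (0.60 to 1.70), TRIB3 (0.46 to 1.74) and VEGFA (0.47 to 1.21) did likewise. CCN2 went from -0.68 to -1.73 and CCN1 from -0.51 to -1.61. UBALD2 went from -0.81 to -1.82, and DIO2, a thyroid hormone deiodinase gene, from -0.32 to -1.74; the 4 h call of DIO2 was lost without any 1 of 4 arrays. Others had no called difference, which does not show that the effect stayed the same: ID2 was -0.84 at 4 h and -0.66 at 18 h, and BHLHE40 0.81 and 1.35. The early rise of DDIT4 was smaller at 18 h (1.11), as was that of CLK2 (0.18, adjusted p = 0.34), and CAPS, a calcium-binding protein gene, went from 0.82 to -1.12. The CAPS call at 4 h was lost without any 1 of 3 arrays, and its 3 other probe sets were negative at 4 h (-0.71 to -0.10).

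**Figure D5:**
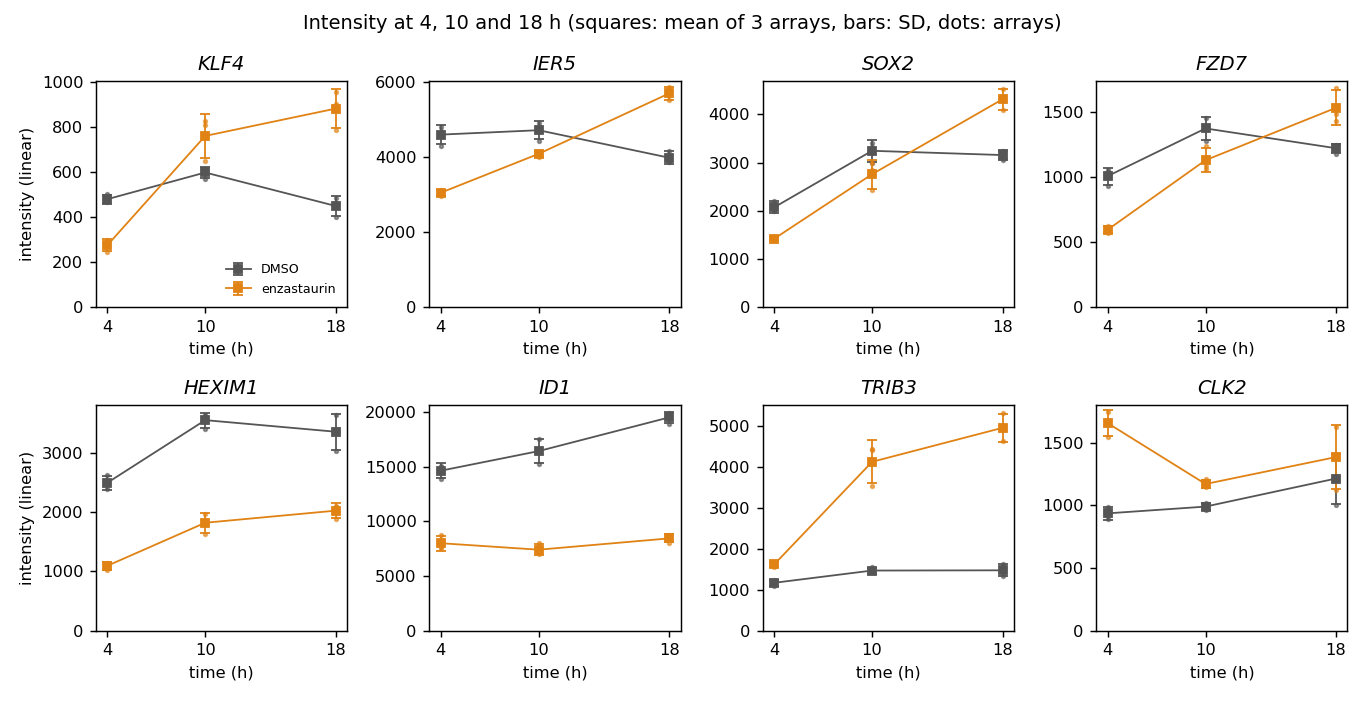
Linear intensity of 8 genes at 4, 10 and 18 h in DMSO (grey) and enzastaurin (orange); squares are means of 3 arrays, bars SD and dots arrays. KLF4, IER5, SOX2 and FZD7 start below DMSO and end above it, HEXIM1 and ID1 stay below, TRIB3 grows apart and CLK2 closes from 1656 against 936 at 4 h.

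Most called genes, 149 of 224, belonged to none of the 42 lists, and some of these, picked here after their values were seen, had narrow errors. ZNF697, a zinc finger gene, read 2603, 2474 and 2545 in DMSO and 4432, 4244 and 4185 in enzastaurin (0.75, SE 0.06, adjusted p = 2.7e-07). FOXP1, a forkhead repressor, rose by 0.47 (adjusted p = 0.00042) and IL17RD, an inhibitor of FGF and ERK signals, by 0.51 (adjusted p = 0.0018). The calls of FOXP1 and IL17RD were lost with the mean over probe sets. GEM, a small GTPase that curbs calcium channels, read 1896, 1682 and 1746 against 942, 1046 and 1089 (-0.78, adjusted p = 5.3e-05). ERRFI1, an inhibitor of the EGF receptor, fell by 0.54 on the log2 scale (adjusted p = 0.00022), and CD274, the checkpoint ligand PD-L1, by 0.38 (adjusted p = 0.045), the latter with a call lost without any 1 of 5 arrays. TAMALIN, a scaffold gene with the most negative change (-2.40), read 338, 210.1 and 201 against 13.5, 41.4 and 54.3, with treated values below the median level and a size as imprecise as that of EFNA1. Each of these genes had groups without overlap, as had all called genes. ZNF697, GEM and ERRFI1 were among the 33 calls kept in every alternative in which the gene was fitted. So were AXIN2, DDIT4, INSIG1, MSMO1, DNAJB9, TRIB3, TNFRSF19, ZNRF3, CLK2, BHLHE40, VEGFA, ENC1 and HOXB3 of the higher genes. Those of the lower genes included ADM, CCN2, DUSP5, EFNA1, EPHB3, FZD7, HEXIM1, ID1, ID2, IER5, MAFF, MYLIP, NRARP, SGK1, TAMALIN and UBALD2. Probe sets that were not used for the calls give a second reading of the same arrays: of those above the median level, 60 of 74 (81.1%) shared the sign of the higher genes and 130 of 171 (76.0%) that of the lower genes, against 57.0% for genes not called. Their median changes were smaller, 0.22 for higher and -0.24 for lower genes, against 0.50 and -0.53 on the probe sets used for the calls.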

How the data were processed

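Total RNA was labelled as cRNA and hybridized to the arrays, and the deposited table holds 1 linear signal intensity per probe set and array, made by the authors with GCOS 1.2, per the submitters' processing notes. Values at 4 h ran from 0.1 to 53978.6, and the 2% trimmed mean was 498.2 to 498.4 on every array, so each had been scaled. Other steps, detection calls and scan files are not given in the sources used here. Of the probe sets 41091 had 1 gene symbol, 1801 several and 11721 none, and only the first kind was used.

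From these, log2 of the intensity plus 16 entered a linear model in limma 3.58.1 under R 4.3.3 (lmFit, eBayes with a trend on mean level) on all 18 arrays, with 1 mean for each of 6 groups. The contrasts were enzastaurin minus DMSO at each time, differences of these effects from 4 h, and DMSO over time. The p-values were adjusted by Benjamini-Hochberg over 12376 genes and called under 0.05, and the median SE at 4 h was 0.134. The number of arrays limits the precision. On simulated data for the 4 h comparison (12376 genes, 50 shifted at each size) 46%, 72%, 96% and 96% were called at log2 changes of 0.5, 1, 1.5 and 2, with 8 of 163 calls false. The simulated noise was independent between genes, with no scaling error shared within an array. Its false calls therefore do not cover the dependence on scaling.

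Members of the comparison and the 42 gene lists (892 genes, 740 tested) were chosen with earlier results of these data known. The naming rule took, from the called genes, the 12 that rose most and the 12 that fell most, then from every list the 4 genes or fewer that ranked first by adjusted p, the protein kinase C and destruction complex genes, and the largest differences between times. Any other gene named was picked with its values in view. The alternatives each changed a single choice: offset, level filter, scaling, probe set rule, variance trend, array weights, arrays fitted, replicate block, and each array left out. Arrays with the same replicate number deviated with correlations of -0.01, -0.05 and 0.04, so they were not treated as pairs. Figures were drawn with matplotlib 3.10.9 in Python 3.11.15.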

Additional observations from a re-analysis of the deposited data

Results flagged for a closer look

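The enzastaurin effect differed between times, by limma's test of the difference itself, for 14 genes called at 4 h that the naming rule picked as having the largest such differences; other called genes differed as well, 111 of the 224 at 18 h in all. All values are log2 effects at the later time minus the effect at 4 h. Because these genes were chosen by their 4 h call, their 4 h value enters both sides, and no cause was tested.

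The rises of AXIN2 (difference at 18 h 1.70, adjusted p = 6.7e-06), TNFRSF19 (1.43, adjusted p = 4.1e-05) and IL17RD (1.30, adjusted p = 1.2e-06) were larger at 18 h. INSIG1 (1.16, adjusted p = 1.2e-05) and SESN2 (1.40, adjusted p = 4.5e-05) had larger rises at 10 h than at 4 h. TRIB3 had a larger rise at 10 h (1.01, adjusted p = 0.00042) and at 18 h (1.28, adjusted p = 2.3e-06).

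Falls that were gone or turned had positive differences. For TAMALIN it was 2.38 at 10 h (adjusted p = 0.037) and 3.60 at 18 h (adjusted p = 0.00026). KLF4 (1.72, adjusted p = 1.9e-06), SLC12A1 (1.91, adjusted p = 0.021) and FLJ46875 (1.51, adjusted p = 0.038) differed at 18 h. The 4 h calls of SLC12A1 and FLJ46875 were lost without any 1 of 3 and any 1 of 5 arrays and with array medians subtracted, and their treated means at 4 h, 48.4 and 65.6, lay below the median level. ZFP36 (1.90, adjusted p = 0.036) and GNAO1-DT (1.66, adjusted p = 0.046) differed at 10 h; the 4 h call of GNAO1-DT was lost without any 1 of 5 arrays. CAPS turned from a rise to a fall (-1.94 at 18 h, adjusted p = 5e-05), and the fall of DIO2 grew (-1.42 at 18 h, adjusted p = 6.7e-08).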

How the results depend on the processing

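Of the alternatives, array weights, offsets of 1 and 64, no level filter, only the brightest 25% of probe sets, no variance trend, quantile normalization and the replicate block kept the 4 h count within 1.5 times 224. It was 79 with array medians subtracted (54 higher, 25 lower, 74 shared with the 224), 127 with a gene's probe sets averaged and 139 with only the 4 h arrays, and leaving out 1 array gave 138 to 177. With the replicate block it was 212, and the block ended the calls of GNAO1-DT, ANG and MXI1 among 83 called genes of the naming rule. Replicate numbers showed no pairing. Differences of effect from 4 h to 10 h, 174, fell to 26 with medians subtracted (8 higher, 18 lower, against 100 and 74), 68 with the mean over probe sets, 114 without level filter and 90 without trend, ranged from 67 to 154 with 1 array left out and were 155 with the replicate block. Those from 4 h to 18 h, 963, were 546 with medians subtracted (143 higher, 403 lower, against 504 and 459), 543 with the mean over probe sets, 704 to 906 with 1 array left out and 942 with the replicate block. Of the 83 called genes, 41 lost the call with medians subtracted, 30 with the mean over probe sets, 15 with only the 4 h arrays, 13 without trend, 9 without level filter and 5 with quantile normalization. The mean over probe sets reversed CAPS (-0.0231) and PRKD2 (-0.0768). The cause of these shifts was not tested. A change of 0.5, near the median of the called genes, was found in 46% of simulated cases, so a missed call does not show that a gene did not change.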

Other observations

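Among gene families searched by symbol after their values were seen, 3 of 34 tested ZBTB factors (ZBTB1, ZBTB33 and ZBTB5) and 3 of 23 tested FBXO genes (FBXO30, FBXO33 and FBXO34) were lower at 4 h and none higher. With array medians subtracted no member of either family was called. Of 12 tested RGS genes, which speed GTP hydrolysis by G proteins, RGS2 and RGS3 were lower, and of 7 SOCS genes, inhibitors of cytokine receptors, SOCS2 was higher and SOCS3 lower. With array medians subtracted SOCS2 alone of these 4 was called; the calls of RGS2 and SOCS3 were each lost without any 1 of 4 arrays and that of SOCS2 without 1 array. Of 357 numbered ZNF zinc finger genes, 5 were higher (ZNF250, ZNF408, ZNF503, ZNF697 and ZNF703) and 1 lower (ZNF10). Over all tested genes 1.81% were called, 0.558% higher and 1.25% lower, and the ZNF counts are no family result beside these shares. The change was positive in 178 ZNF genes and negative in 179. The calls of ZNF250, ZNF408 and ZNF10 were lost with array medians subtracted and without any 1 of 6, 5 and 3 arrays, in that order, and those of ZNF503 and ZNF703 with the mean over probe sets.

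Genes called at 4 h were not the dimmest. The median DMSO intensity was 1045 for the higher and 1372 for the lower genes, against 678 for all genes tested, and 8 called genes, 2 higher and 6 lower, had a DMSO mean under 200.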
